A study of Mus musculus with 16 samples.

Results

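A set of 10 genes that code for heat shock proteins and for factors of the unfolded protein response was followed in epidermal cells of the mouse footpad: Hspa1a, Hspa1b, Hspb1, Dnajb1, Hsph1, Hsp90aa1, Hspa8, Hspa5, Ddit3 and Atf4. They were taken by gene symbol, so that these are 10 of the 50600 genes in the table and 10 of the 22155 that had at least 10 counts over all libraries and were tested. The smallest count of any of them in any library was 528, for Ddit3. RNA was sequenced from epidermal cells of female C57/B6J mice, in 16 libraries, 4 in each of 4 groups. Mice were placed at 5 wk of age for 3 wk on SYNTH, a purified diet poor in ligands of the aryl hydrocarbon receptor (AhR) and called here the AhR-poor diet, or on I3C, that diet with 200 ppm of indole-3-carbinol, a plant compound from which AhR ligands form. They were then injected in the footpad with 50 µl of PBS (vehicle) or with 50 µg of papain, a plant cysteine protease used as an allergen, and cells were taken 6 h later. The groups are the AhR-poor diet with vehicle (libraries T100, T101, T102 and T103) or papain (T104, T105, T107 and T112) and the I3C diet with vehicle (T108, T109, T110 and T111) or papain (T106, T113, T114 and T115). The comparisons ask how papain changed expression on each diet, and how the diets differed under each injection.

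Heat shock proteins are chaperones that hold, refold or hand on proteins that have lost their shape. Heat, oxidants and misfolded proteins release heat shock factor 1, which switches on the inducible members of the family, whereas other members are made at all times. The unfolded protein response does for the endoplasmic reticulum what the heat shock response does for the cytosol: the sensors ATF6, IRE1 and PERK raise the chaperones and folding enzymes of the secretory pathway, and PERK, through ATF4, can raise the death-associated factor CHOP. In skin, keratinocytes hold high amounts of small heat shock proteins as they differentiate. Several heat shock genes and immediate early genes are also known to rise when a tissue is cut, warmed and digested into single cells.

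Stretches of the promoters that hold elements known for the heat shock response and for the reticulum response are shown, because the genes are described by these pathways. The RefSeq promoter table for GRCm38.p6 held 32851 promoters and matched 8 of the 10 genes; Hsp90aa1 and Hspa8 were not among them. In the 250 bases before the start, both strands were searched for the endoplasmic reticulum stress element (CCAAT and CCACG with 9 free bases between them), which 0.113% of all promoters held, and for a pair of heat shock units (GAA and TTC in either order with 2 free bases between them), which 12.8% held. Capitals mark these letters, and each stretch is written 5′ to 3′ on the gene's strand.
Hspa5, chr2:34772020-34772048 (plus strand): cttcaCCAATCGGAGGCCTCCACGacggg
Hspb1, chr5:135887782-135887849 (plus strand): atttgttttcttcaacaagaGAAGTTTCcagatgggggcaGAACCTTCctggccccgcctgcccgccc
Hsph1, chr5:149636351-149636380 (minus strand): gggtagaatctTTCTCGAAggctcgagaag
Hspa1a, chr17:34972233-34972280 (minus strand): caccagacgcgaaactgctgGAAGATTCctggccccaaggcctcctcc
Hspa1b, chr17:34959315-34959362 (minus strand): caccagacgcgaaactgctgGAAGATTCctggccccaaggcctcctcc
Hspa5 was the single gene of the 8 with the reticulum element, which lay 65 to 47 bases before its RefSeq start. Hspb1 held the pair of heat shock units at 2 places and Hsph1, Hspa1a and Hspa1b at 1 place each. The Hspa5 and Hsph1 stretches lie before the RefSeq start, but GENCODE release M21 places the gene's start further out, so that its gene span holds the Hspa5 stretch and all but the first few bases of the Hsph1 stretch. The promoters of Hspa1a and Hspa1b were identical at 247 of 250 bases. A full heat shock element of 3 alternating units (GAA, TTC and GAA, or TTC, GAA and TTC, each 2 bases apart) was in 0.466% of all promoters and in none of the 8. The element of C/EBP and ATF factors (TGATG, 1 free base, then AA) was in 3.45% of all promoters and in none of the 8, and a CCAAT box was in 33.8%. The pair of units was searched after the data had been seen. These matches describe letters only and do not say which factor binds.

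The libraries held 22500821 to 51844375 counts. Levels are given as CPM, counts scaled to a common library total with TMM factors. Keratinocyte markers marked every library: the 7 basal genes (among them Krt5 and Krt14) summed to 21070.0 to 37272 CPM and the 9 suprabasal genes (among them Krt1 and Krt10) to 19067 to 44264 CPM over the 16 libraries. Markers of other cells moved with both the diet and papain. The 11 fibroblast genes summed to 88.0 to 113.4 CPM on the I3C diet with vehicle and 169 to 180.4 with papain, against 187 to 277 and 472 to 884 CPM on the AhR-poor diet, and Mfap5 had 3 counts or fewer in every library on the I3C diet. The 8 neutrophil genes summed to 1.64 to 4.77 CPM with vehicle and 51.2 to 92.7 with papain on the I3C diet, and to 9.76 to 12.3 and 98.8 to 671 CPM on the AhR-poor diet. Mice on the same diet shared a cage, so diet and cage cannot be told apart. In such bulk samples fewer cells of a type and less RNA per cell cannot be told apart either. In every group the cells had been released from the epidermis by warm dispase digestion and agitation before RNA was taken. The protocol was common to all groups, but how the handling of single libraries varied is not given.

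Per kilobase of exon the small chaperone gene Hspb1 and the inducible HSP70 gene Hspa1b stood highest and Hsph1 and Ddit3 lowest. In I3C-fed mice with vehicle the mean level was 725 CPM per kb for Hspb1, 696 for Hspa1b, 405 for Hspa1a, 394 for Hspa8 and 253 for Dnajb1. It was 194 for Atf4, 161 for Hsp90aa1, 147 for Hspa5, 23.1 for Hsph1 and 20.4 for Ddit3. The ranges of neighbours in this order overlapped, as for Hspb1 (SD 157 CPM per kb) and Hspa1b (SD 168), except at the step from Hspa5 down to Hsph1. With papain on the AhR-poor diet the order began with Hspb1 (659 CPM per kb), Hspa8 (432), Hspa1b (281) and Hspa5 (212), and Hspa1a stood at 139. Over all 16 libraries the highest level was 5.06 times the lowest for Hsph1, 4.40 times for Hspa1a, 4.26 times for Dnajb1, 1.99 times for Hspb1 and 1.72 times for Atf4. Library T108 (I3C diet, vehicle) held the highest level of 7 of the 10 genes.

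**Figure D1:**
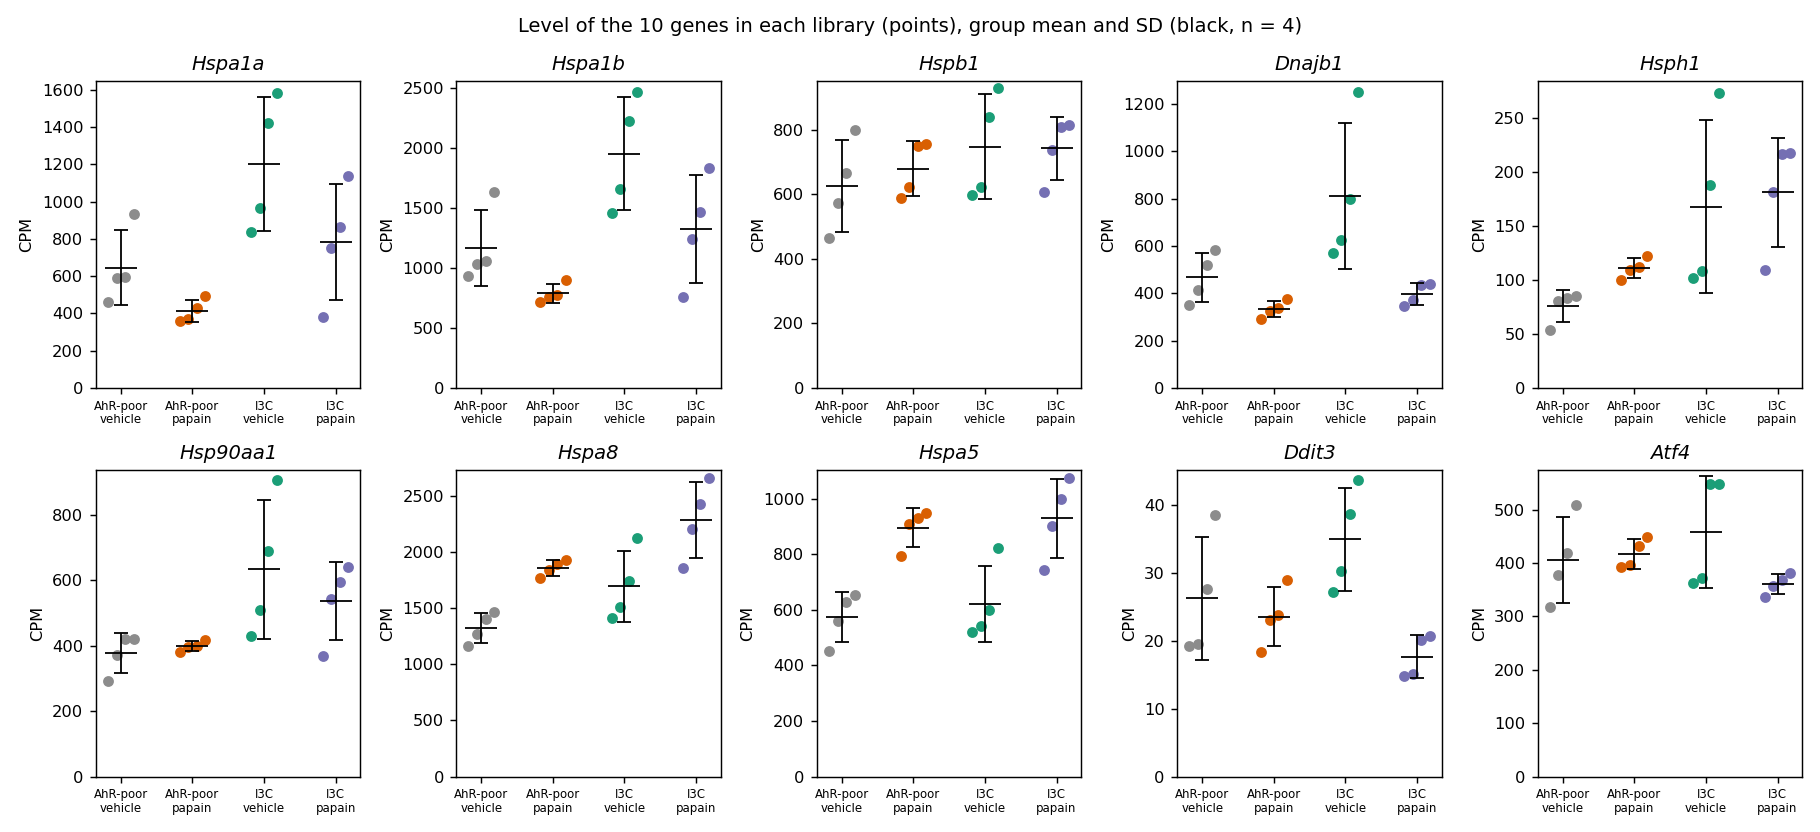
CPM of each of the 10 genes (vertical axis, from 0) in the 4 libraries of each group (points), with the group mean and SD in black. Hspa5 and Hspa8 have higher means with papain on both diets, with overlapping libraries on the I3C diet. Hspa1a and Hspa1b have higher means on the I3C diet than on the AhR-poor diet, with overlapping libraries under both injections. The 4 vehicle libraries on the I3C diet are widely spread, with Dnajb1 between 568 and 1249.5 CPM.

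Papain was followed on both diets by higher Hspa5 and Hspa8. With the I3C diet, Dnajb1 and Ddit3 fell. A gene is said here to have risen or fallen where the Benjamini-Hochberg adjusted p of the edgeR quasi-likelihood test over all genes was below 0.05. It is said to be called where that p was below 0.01 and the log2 fold change above 1 or below -1. This is the study's own threshold, which the study applied to DESeq2 results. On the AhR-poor diet 2 of the 10 genes rose, where 17.7% of all genes did, none fell, where 15.7% did, and none was called, where 8.46% were. DESeq2 also gave 2 risen and 0 fallen there, and the edgeR p before adjustment was below 0.05 for 4 of the 10. On the I3C diet 2 of the 10 rose against 16.9% of all genes, 2 fell against 18.4%, and Dnajb1 was the single call, against 8.98%. DESeq2 gave 2 risen and 3 fallen on the I3C diet, with Hspa1b joining Dnajb1 and Ddit3. The edgeR shares of risen and fallen genes on the I3C diet, and of risen genes on the AhR-poor diet, are near those of all genes. For DESeq2 and for p before adjustment no share over all genes was taken. The median log2 fold change of the 10 genes was 0.06 on the AhR-poor diet, where that of all genes was -0.0044, and -0.29 on the I3C diet, where that of all genes was -0.04. The 2 papain comparisons share no library.

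Hspa5 codes for BiP (GRP78), the HSP70 of the endoplasmic reticulum and the best known target of the unfolded protein response. It lies at chr2:34771970-34777547 on the plus strand of GRCm38 and has 7 exon blocks. On the AhR-poor diet it stood at 653, 452, 628 and 558 CPM with vehicle and at 909.9, 931, 948 and 795 CPM with papain. The groups did not overlap. Its mean rose from 573 ± 90.0 to 896 ± 68.9 CPM (SD, n = 4), a log2 fold change of 0.65 ± 0.15 (SE) with an edgeR adjusted p of 0.00210. The 2-sided exact permutation test of the 4 against 4 log2 CPM values gave p = 0.0286, the smallest that 70 splits can give. In I3C-fed mice the vehicle libraries held 822, 543, 521 and 598 CPM and the papain libraries 744, 1073, 1000.5 and 903 CPM. Here T108 stood above the lowest papain library, T106, and the other 3 vehicle libraries stood below every papain library. The log2 fold change was 0.58 ± 0.15, with an edgeR adjusted p of 0.00403 and an exact permutation p of 0.0571.

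Hspa8 codes for HSC70, the HSP70 that cells make at all times. It lies at chr9:40800984-40810087 on the plus strand and its exons hold 3 small nucleolar RNA genes over 262 bases of the same strand, so that reads of those could be counted in either. On the AhR-poor diet it stood at 1403, 1162, 1463 and 1273 CPM with vehicle and 1926, 1771, 1896 and 1842 CPM with papain, again without overlap. With the I3C diet it stood at 2123, 1511, 1410.4 and 1743 CPM with vehicle and 1861, 2658, 2428 and 2205 CPM with papain, and T108 again reached above T106. The log2 fold change was 0.49 ± 0.12 on the AhR-poor diet (edgeR adjusted p 0.00394) and 0.43 ± 0.12 on the I3C diet (edgeR adjusted p 0.00844). As fold changes these were 1.40 and 1.35 for Hspa8, beside 1.57 and 1.50 for Hspa5. Both genes stayed past the threshold on both diets whichever of the 16 libraries was left out.

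Hspa1a and Hspa1b code for the strongly inducible HSP70 and are near-identical neighbours, at chr17:34969190-34972156 and chr17:34956436-34959238, both with a single exon on the minus strand. Of the 100-base windows of Hspa1a, 47.1% are found without change in Hspa1b, so their counts may be split arbitrarily and they are best read as a pair. Hspa1a made up 32.4% to 39.1% of the sum of both in every library. Gm20481, an antisense gene over 564 bases of Hspa1a, was counted at 2.69 to 15.6 CPM. Hspa1a stood at 589.8, 463, 594 and 931 CPM with vehicle and 429, 369.9, 360.1 and 492 CPM with papain on the AhR-poor diet. On the I3C diet it stood at 1585, 963, 835 and 1419 CPM with vehicle and 382, 752, 1137 and 865 CPM with papain. The lowest papain library on the I3C diet was T106, with 382 CPM, and the other 3 stood above every papain library on the AhR-poor diet.

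Hspa1b was measured at 1034, 929, 1058 and 1631 CPM with vehicle and 760.5, 770.2, 717 and 903 CPM with papain on the AhR-poor diet, and the groups did not overlap. In I3C-fed mice its values were 2468, 1655, 1461 and 2221 CPM with vehicle and 759.5, 1242, 1827 and 1469 CPM with papain. The papain means of the pair were lower on both diets, but the edgeR test was not passed. The log2 fold change of Hspa1a was -0.64 ± 0.31 on the AhR-poor diet (edgeR adjusted p 0.129) and -0.62 ± 0.31 on the I3C diet (edgeR adjusted p 0.141). That of Hspa1b was -0.56 ± 0.24 (edgeR adjusted p 0.0944) and -0.56 ± 0.24 (edgeR adjusted p 0.0930). Hspa1b on the I3C diet passed with DESeq2 (adjusted p 0.0418) and in edgeR without T114 (0.0281), and Hspa1b on the AhR-poor diet passed in edgeR without T106 of the I3C diet (0.0376).

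Dnajb1 codes for HSP40, the J-domain partner that loads HSP70 with clients, and lies at chr8:83608193-83612653 on the plus strand with 4 exon blocks. With the I3C diet it stood at 1249.5, 568, 624 and 799 CPM with vehicle and 345, 441, 434 and 371 CPM with papain. All 4 papain libraries were below all 4 vehicle libraries, with an exact permutation p of 0.0286. The mean fell from 810.3 ± 309 to 398 ± 47.3 CPM (SD, n = 4), a log2 fold change of -1.03 ± 0.22 (SE) with an edgeR adjusted p of 0.00148. The call rests on its fold lying just past the minimum: without the vehicle library T108, or without the papain library T115, no gene of the 10 was called, although Dnajb1 still fell, and without T106 Ddit3 was called in its place. On the AhR-poor diet Dnajb1 stood at 585, 351, 519 and 414 CPM with vehicle and 293, 326, 376 and 337 CPM with papain, which overlapped, and the log2 fold change was -0.49 ± 0.21 (edgeR adjusted p 0.0953). It passed the threshold there without the vehicle library T101 (adjusted p 0.0483) and without T108 of the I3C diet (0.0171).

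Hsph1 codes for HSP110, which exchanges the nucleotide of HSP70, and Hsp90aa1 for the inducible HSP90. They lie at chr5:149614287-149636376 and chr12:110690605-110702728, both on the minus strand. Hsph1 stood at 80.6, 54.1, 83.5 and 85.2 CPM with vehicle and 123, 109.4, 111.8 and 100.4 CPM with papain on the AhR-poor diet. The 2 groups did not overlap (exact permutation p 0.0286), but the edgeR test, whose spread comes from all 4 groups, was not passed (log2 fold change 0.55 ± 0.30, adjusted p 0.180). With only the 8 libraries of that diet in the fit, Hsph1 passed (adjusted p 0.00849). On the I3C diet Hsph1 was spread over 273, 108.8, 101.9 and 188 CPM with vehicle and 109.6, 217, 217 and 181 CPM with papain, and its log2 fold change was 0.11 ± 0.29 (edgeR adjusted p 0.820). Hsp90aa1 stood at 422, 292, 373 and 419.8 CPM with vehicle and 416, 382, 397 and 400.1 CPM with papain on the AhR-poor diet. In I3C-fed mice it stood at 907, 509, 430.2 and 689 CPM with vehicle and 368, 596, 642 and 542 CPM with papain. No papain difference of Hsp90aa1 passed the test, with log2 fold changes of 0.083 ± 0.21 (approximate 95% interval -0.32 to 0.49) and -0.24 ± 0.21 (-0.65 to 0.17).

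Hspb1 codes for HSP25, a small chaperone that binds unfolding proteins without using ATP. It lies at chr5:135887919-135889563 on the plus strand. Its levels overlapped in every pair of groups: 573, 466, 667 and 801 CPM with vehicle and 589, 624, 755 and 750.2 CPM with papain on the AhR-poor diet. With the I3C diet they were 840.3, 598, 623 and 928 CPM with vehicle and 606, 739, 809 and 814 CPM with papain. The papain log2 fold change was 0.12 ± 0.17 (approximate 95% interval -0.21 to 0.44) on the AhR-poor diet and -0.01 ± 0.17 (-0.34 to 0.32) on the I3C diet. Of the cytosolic genes it was the steadiest over the libraries.

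Ddit3 codes for CHOP, the transcription factor that joins a long-lasting unfolded protein response to cell death, and Atf4 for the factor that PERK and related kinases favour and that drives Ddit3. Ddit3 lies at chr10:127290774-127296288 on the plus strand, where it shares exonic bases of its own strand, and 81 of the other, with further genes, and Atf4 lies at chr15:80255184-80257541, also on the plus strand. Ddit3 stood at 43.7, 30.3, 27.2 and 38.7 CPM with vehicle and 20.7, 20.2, 15.1 and 14.8 CPM with papain on the I3C diet, without overlap. Its mean fell from 34.95 ± 7.61 to 17.7 ± 3.16 CPM (SD, n = 4), a log2 fold change of -0.98 ± 0.22 with an edgeR adjusted p of 0.00273 and an exact permutation p of 0.0286. This fell just short of the fold needed for a call, and without T113, T109 or T110 Ddit3 was called beside Dnajb1. On the AhR-poor diet it stood at 38.5, 19.3, 27.6 and 19.5 CPM with vehicle and 29.0, 23.1, 23.8 and 18.4 CPM with papain, and the log2 fold change was -0.16 ± 0.22 (edgeR adjusted p 0.646).

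Atf4 stood at 509, 318, 418 and 378 CPM with vehicle and 433, 397, 449.8 and 392 CPM with papain on the AhR-poor diet. On the I3C diet it stood at 549, 372, 363 and 548 CPM with vehicle and 357, 381, 368 and 336 CPM with papain. The vehicle libraries of the I3C diet split into T108 and T111, the highest of the 16, and T109 and T110, which lay within the papain range. The log2 fold change was 0.041 ± 0.14 on the AhR-poor diet (edgeR adjusted p 0.863) and -0.35 ± 0.14 on the I3C diet (edgeR adjusted p 0.0696). In the latter, Atf4 passed the threshold without T109, T110 or the AhR-poor vehicle library T100 (adjusted p 0.0287, 0.0206 and 0.0445), and with scaling by library size only (0.0443). Hspa5 and Ddit3, both known targets of the reticulum response, thus moved in opposite directions with papain on the I3C diet. Papain libraries whose groups did not overlap with vehicle stood higher for 3 genes (Hspa5, Hspa8 and Hsph1) and lower for 1 (Hspa1b) on the AhR-poor diet, where 17% and 16% of all genes did, and higher for 0 and lower for 2 (Dnajb1 and Ddit3) on the I3C diet, where 16.2% and 17.3% did.

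**Figure D2:**
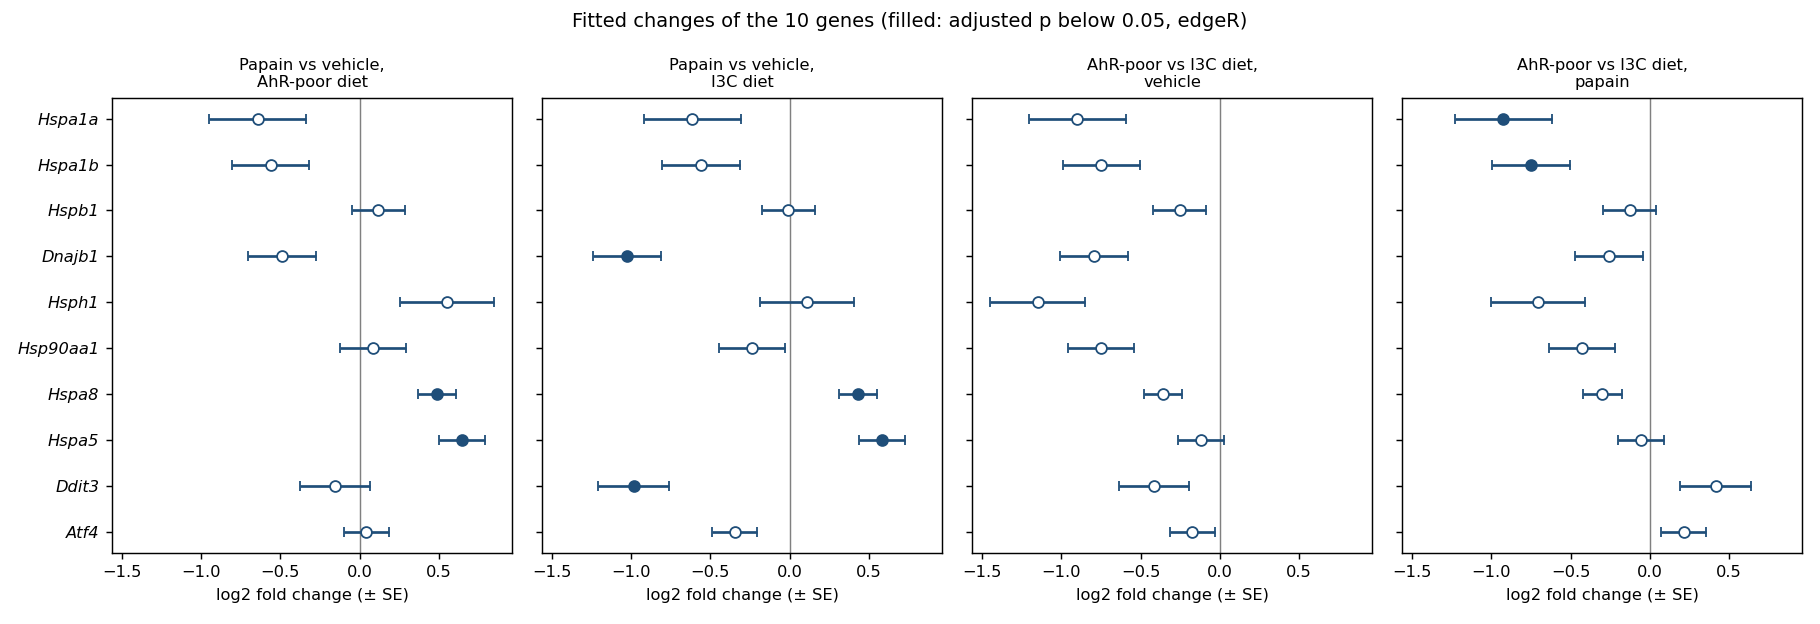
Fitted log2 fold change ± SE (horizontal axis) of each of the 10 genes in the 4 comparisons, from the edgeR model of all 16 libraries, with filled points where the adjusted p is below 0.05. Hspa5 and Hspa8 lie right of 0 in both papain comparisons, Dnajb1 and Ddit3 lie near -1 on the I3C diet, and all 10 genes lie left of 0 in the diet comparison with vehicle.

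The means of the inducible cytosolic genes were lower on the AhR-poor diet under both injections, but within 1 injection few differences passed the test. All differences are given as AhR-poor minus I3C. With vehicle, all 10 log2 differences were below 0, with a median of -0.58 beside -0.01 for all genes. None of the 10 fell by the edgeR test, where 0.0993% of all genes did, none rose, where 2.98% did, and none was called, where 1.59% were. Of the 10 genes, 6 had an edgeR p before adjustment below 0.05, and the DESeq2 test put 5 of them past an adjusted p of 0.05. The 5 were Hspa1a, Hspa1b, Dnajb1, Hsph1 and Hsp90aa1. With DESeq2 Hsph1 also met the study's threshold (log2 -1.15, adjusted p 7.48e-04). No share over all genes was taken for DESeq2 or for p before adjustment, so these counts have no background beside them. The vehicle libraries of the 2 diets did not overlap for Hsph1 and Hsp90aa1, which stood lower on the AhR-poor diet as 1.67% of all genes did. No gene of the 10 stood higher without overlap, as 6.45% of all genes did.

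With vehicle the largest log2 difference was that of Hsph1, -1.15 ± 0.30 (edgeR adjusted p 0.0575), with means of 75.8 ± 14.6 CPM on the AhR-poor diet and 168 ± 80.4 CPM on the I3C diet (SD, n = 4). Hspa1a followed with -0.90 ± 0.31 (edgeR adjusted p 0.185) and means of 644 ± 201 and 1200.3 ± 359 CPM. Dnajb1 differed by -0.80 ± 0.21 (edgeR adjusted p 0.0640), Hsp90aa1 by -0.75 ± 0.21 (0.0730) and Hspa1b by -0.75 ± 0.25 (0.157). These values turned on single libraries. Without T106 3 genes fell (Hspa1b, Hsph1 and Hsp90aa1), without T109 2 fell (Dnajb1 and Hsph1), and without T110 3 fell (Dnajb1, Hsph1 and Hsp90aa1). The difference of Hspa5 was -0.12 ± 0.14 (approximate 95% interval -0.40 to 0.17) and that of Atf4 -0.17 ± 0.14 (-0.45 to 0.11).

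With papain, the HSP70 pair was lower on the AhR-poor diet. Hspa1a differed by -0.92 ± 0.31 (edgeR adjusted p 0.0478), with means of 413 ± 61.0 CPM on the AhR-poor diet and 784 ± 313 CPM on the I3C diet, and Hspa1b by -0.75 ± 0.25 (edgeR adjusted p 0.0432), with means of 788 ± 80.1 and 1324 ± 447 CPM (SD, n = 4). These are 2 of the 10 genes, where 8.36% of all genes fell, 12.3% rose and 7.24% were called. As their counts may be split arbitrarily, the 2 are not separate measures. The exact permutation p was 0.0857 for Hspa1a and 0.114 for Hspa1b, since T106 lay among the AhR-poor libraries. Both p-values lay close to the threshold. The count of fallen genes was 4 without T106 or T108 (Hspa1a, Hspa1b, Hsph1 and Hspa8), 1 without T112, and 0 without T100, T102, T104, T105, T107, T109, T111, T113, T114 or T115. Without T106 Hspa1a was also called, with a log2 difference of -1.14. Hsph1 differed by -0.71 ± 0.30 (edgeR adjusted p 0.114), Hsp90aa1 by -0.43 ± 0.21 (0.171) and Hspa8 by -0.30 ± 0.12 (0.0885). For Hsph1 and Hsp90aa1, as for the pair, the papain libraries T113, T114 and T115 of the I3C diet stood above all 4 on the AhR-poor diet.

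Atf4 and Ddit3 went the other way with papain, without passing the test. Atf4 stood higher on the AhR-poor diet in all 4 papain libraries, as 12.5% of all genes stood higher without overlap and 12.3% lower, and its log2 difference was 0.21 ± 0.14 (edgeR adjusted p 0.336; exact permutation p 0.0286). Ddit3 differed by 0.41 ± 0.22 (edgeR adjusted p 0.225). Hspa5 differed by -0.054 ± 0.14 (approximate 95% interval -0.34 to 0.23). The papain comparisons and the diet comparisons share libraries, so that a low T106 or a high T108 enters both.

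Whether papain acted differently on the diets was tested by the interaction, the papain response on the AhR-poor diet minus that on the I3C diet. None of the 10 genes passed an adjusted p of 0.05 in edgeR, where 0.329% of all genes did and 0.0181% were called, and DESeq2 also gave none. Ddit3 came nearest, with a log2 interaction of 0.83 ± 0.32 and an edgeR adjusted p of 0.284, and it was the single gene of the 10 whose p before adjustment was below 0.05. Dnajb1 had 0.54 ± 0.30 (edgeR adjusted p 0.461) and Atf4 0.39 ± 0.20 (edgeR adjusted p 0.412). For Hspa5 and Hspa8 the interactions were 0.063 ± 0.20 (approximate 95% interval -0.34 to 0.46) and 0.057 ± 0.17 (-0.28 to 0.39). Thus the fall of Dnajb1 and Ddit3 on the I3C diet was not shown to differ from their change on the AhR-poor diet.

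Averages over the second factor were added after the data had been seen, and use all 16 libraries for each value. Averaged over both injections, 6 of the 10 genes were lower on the AhR-poor diet, where 6.37% of all genes were, and none was higher, where 11.9% were. The 6 include Hspa1a and Hspa1b, which are best read as a pair and not as separate measures. The log2 difference was -0.93 ± 0.21 for Hsph1 (edgeR adjusted p 0.00716), -0.91 ± 0.22 for Hspa1a (0.00977) and -0.75 ± 0.17 for Hspa1b (0.00754). It was -0.59 ± 0.15 for Hsp90aa1 (edgeR adjusted p 0.0111), -0.53 ± 0.15 for Dnajb1 (0.0250) and -0.33 ± 0.085 for Hspa8 (0.0109). The same 6 passed whichever of the 16 libraries was left out, but Dnajb1 only narrowly, with an edgeR adjusted p of up to 0.0498. The 4 other genes had differences of -0.19 ± 0.12 (Hspb1), -0.086 ± 0.10 (Hspa5), 0.00039 ± 0.15 (Ddit3) and 0.02 ± 0.10 (Atf4).

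Averaged over both diets, papain raised Hspa5 and Hspa8, where 21.9% of all genes rose, and lowered Dnajb1, Ddit3, Hspa1b and Hspa1a, where 23.4% fell. The log2 fold changes were 0.61 ± 0.10 for Hspa5 (edgeR adjusted p 8.09e-05), 0.46 ± 0.085 for Hspa8 (1.90e-04), -0.76 ± 0.15 for Dnajb1 (7.23e-04) and -0.57 ± 0.16 for Ddit3 (0.00773). Hspa1b had -0.56 ± 0.17 (edgeR adjusted p 0.0155) and Hspa1a -0.63 ± 0.22 (0.0286), and Hspa1a passed in 11 of the 16 leave-one-out fits. Hspa8 was the single gene of the 10 that was both higher with papain and lower on the AhR-poor diet in these averages.

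**Figure D3:**
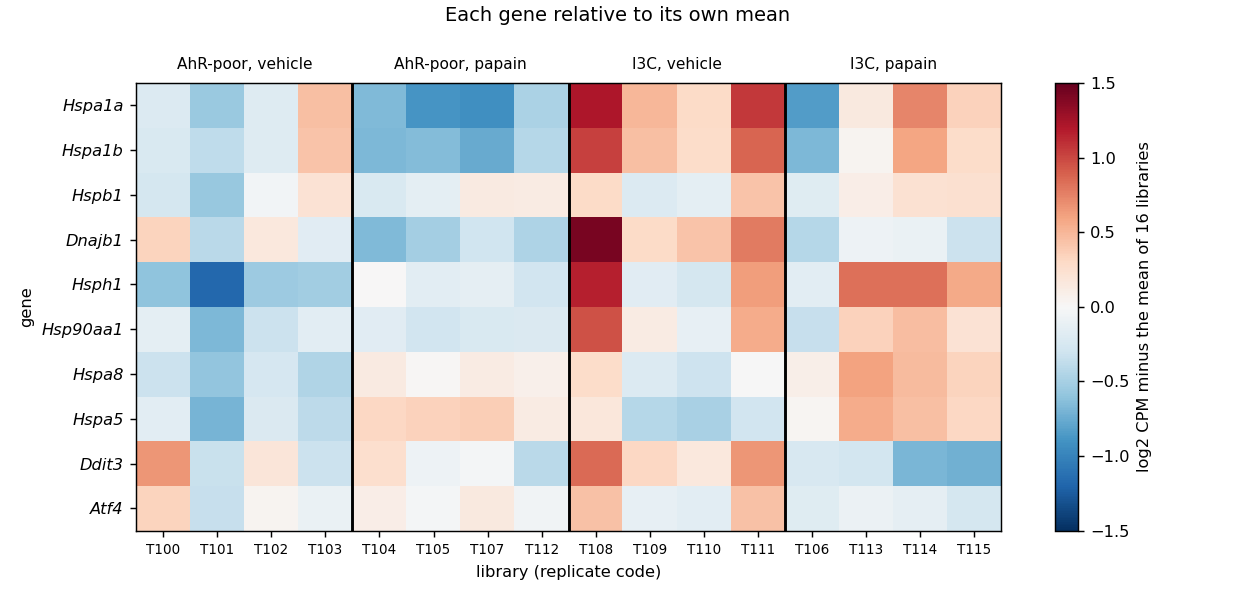
Each row is 1 of the 10 genes and each column 1 library, grouped by diet and injection, with colour for log2 CPM minus the gene's mean over the 16 libraries (red above, blue below). The columns T108 and T111 are red for most genes, T101 is blue for every gene, and Hspa1a and Hspa1b share 1 pattern.

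Among the 10 genes, some pairs had like patterns over the 16 libraries. As a description over 16 libraries that share groups, Pearson's r of log2 CPM was 0.996 for Hspa1a and Hspa1b, 0.92 for Hsph1 and Hsp90aa1, 0.90 for Hspa8 and Hspa5 and 0.82 for Ddit3 and Atf4. With the group means taken away these were 0.99, 0.97, 0.93 and 0.82. Hspa5 and Ddit3 had an r of -0.28 over the libraries but 0.59 within groups. This was not particular to them: within groups r was positive for every pair except Ddit3 with Hspa1a, Hspa1b and Hspb1. Hspa5 and Dnajb1 had an r of -0.26 over the libraries and 0.88 within groups. Hspa1a and Hspa5 had -0.15 and 0.58.

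Among 13026 genes with a mean of at least 1 CPM, the patterns most like each of the 10 were sought by the same r over the 16 libraries. For Hspa1a the top genes were Hspa1b (0.996), Gm20481 (0.99) and 2010300C02Rik (0.91), of which Gm20481 overlaps it. For Hspb1 they were Hsp25-ps1 (0.83), Fhl2 (0.83) and Tbc1d10a (0.79), of which Hsp25-ps1 is named as its pseudogene, so that reads could be shared. For Dnajb1 they were Pip4p1 (0.97), Arc (0.95) and Egr4 (0.95), of which Arc and Egr4 are immediate early genes. For Hsp90aa1 they were Hsph1 (0.92), Zfand2a (0.90) and Mat2a (0.90), and for Hsph1 Hsp90aa1 (0.92), Piga (0.91) and Nptx2 (0.91). Hspa8 was most like Nop58 (0.97), Tmem185b (0.96) and Ubfd1 (0.96), and Hspa5 like Ube2j1 (0.97), Epgn (0.97) and Arf4 (0.97). Ddit3 was most like Klf2 (0.98), Gm12940 (0.93) and Sertad1 (0.92), and Atf4 like Eif1 (0.96), Bambi (0.90) and Maff (0.87).

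Since immediate early genes also respond to tissue handling, their level is given beside the inducible genes. The 20 immediate early genes summed to 29566 to 51568 CPM on the I3C diet with vehicle and 21184 to 21588 with papain, and to 22331 to 36429.9 and 18650.1 to 23873 CPM on the AhR-poor diet. The 6 inducible cytosolic genes (Hspa1a, Hspa1b, Hspb1, Dnajb1, Hsph1 and Hsp90aa1) summed to 4075 to 7323 and 2570.0 to 5067 CPM on the I3C diet and to 2554 to 4281 and 2581 to 2982 CPM on the AhR-poor diet. T108 was highest in both sums. In the papain libraries the immediate early sums of the 2 diets overlapped. The inducible sums of 3 of the 4 papain libraries on the I3C diet stood above all 4 on the AhR-poor diet. In I3C-fed mice papain lowered 15 of the 20 immediate early genes and raised 1, with a median log2 fold change of -0.74, and called Klf2 (-1.73), Btg2 (-1.25), Nr4a1 (-1.14) and Zfp36 (-1.07) lower. On the AhR-poor diet 4 fell and 1 rose, with a median of -0.40. Over all genes 18.4% fell and 16.9% rose on the I3C diet, and 15.7% and 17.7% on the AhR-poor diet. The 4 of 20 that fell on the AhR-poor diet are thus near the background. Of all genes 8.98% were called on the I3C diet. Between the diets none passed with vehicle or in the average over injections, and 1 (Ier3, named for this) was higher with papain. Their median log2 difference between the diets was -0.30 with vehicle, 0.063 with papain and -0.12 in the average. The medians of all genes were -0.01, 0.01 and -0.0047. The part of handling in the fall of Dnajb1 and Ddit3 with papain was not tested. Nor was its part in the diet differences of the inducible genes tested.

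**Figure D4:**
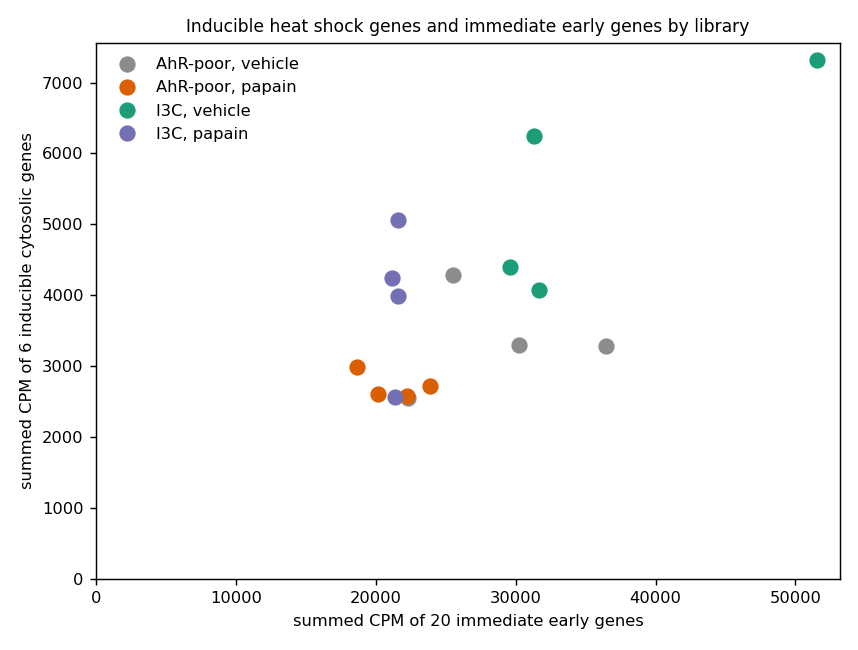
Summed CPM of the 6 inducible cytosolic genes (vertical axis) against summed CPM of the 20 immediate early genes (horizontal axis), 1 point a library, both axes from 0. T108 lies at the upper right, and 3 papain libraries of the I3C diet lie above the papain libraries of the AhR-poor diet.

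Around Hspa5, most genes of the wider unfolded protein response list rose with papain on both diets. Of 39 tested genes of the reticulum (40 listed, the 10 genes left out), 28 rose and 1 fell on the AhR-poor diet and 29 rose and 1 fell on the I3C diet, with medians of 0.44 and 0.53 on the log2 scale. Over all genes 17.7% rose and 15.7% fell on the AhR-poor diet and 16.9% and 18.4% on the I3C diet. The call threshold was passed by 5 upward on the AhR-poor diet and by 8 upward and 1 downward on the I3C diet. Of all genes 8.46% and 8.98% were called there, in either direction. Sdf2l1, a partner of BiP, went from 10.5 to 33.1 CPM on the AhR-poor diet (log2 1.65, edgeR adjusted p 3.29e-08) and from 9.28 to 32.7 CPM on the I3C diet (log2 1.81, edgeR adjusted p 6.25e-09). Creld2, Hyou1 (the reticulum's HSP110) and Pdia4 (a disulfide isomerase) rose by log2 1.23, 1.15 and 1.02 on the AhR-poor diet and by 1.40, 1.39 and 1.23 on the I3C diet. The factor Xbp1 rose by log2 0.86 and 1.13, whereas Dnajb9 and Herpud1, further known targets, had -0.13 and -0.10 on the AhR-poor diet and -0.44 and -0.16 on the I3C diet without passing. The gene that fell on both diets was Crebrf (-0.60 and -1.02). These 4 were named after their values were seen. The summed level of the list was 3372 to 4001 CPM with vehicle and 5349 to 5697 with papain on the AhR-poor diet, and 3417 to 3607 and 5424 to 6564 on the I3C diet, so that the injections did not overlap.

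Between the diets few genes of the reticulum list passed. With vehicle none of the 39 genes passed, and with papain 1 stood higher and 5 stood lower in AhR-poor mice, with a median log2 difference of -0.14. Averaged over the injections 1 was higher and 1 lower. Of all genes, 12.3% were higher and 8.36% lower with papain, and 11.9% and 6.37% in the average. Hspa5 itself had log2 differences of -0.12 with vehicle and -0.054 with papain.

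Around the cytosolic genes, more of the wider chaperone list rose than fell with papain. Of 47 tested genes (48 listed), 25 rose and 3 fell on the AhR-poor diet and 23 rose and 10 fell on the I3C diet, with medians of 0.24 and 0.21 on the log2 scale. No gene of it was called on the AhR-poor diet and 2 were called lower on the I3C diet, of which only the small heat shock gene Cryab had a mean over 1 CPM (log2 -1.35, edgeR adjusted p 0.00123). Cryab was also higher on the AhR-poor diet with papain (2.30 against 0.820 CPM, log2 1.48, edgeR adjusted p 0.00129), opposite in sign to the HSP70 pair. Between the diets none of the 47 passed with vehicle, 3 rose and 1 fell towards the AhR-poor diet with papain, and 3 rose and 5 fell in the average. Over all genes the shares were 17.7% and 15.7% with papain on the AhR-poor diet, 16.9% and 18.4% on the I3C diet, 12.3% and 8.36% between the diets with papain, and 11.9% and 6.37% in the average. Of the relatives of Dnajb1 on the list, Dnajb4 and Dnajb5 had log2 differences of -0.28 and -0.27 in that average without passing (edgeR adjusted p 0.194 and 0.214), and the type A gene Dnaja1 was lower on the AhR-poor diet (-0.47, edgeR adjusted p 0.0481). The other listed J-domain genes lay nearer 0 and did not pass: Dnaja2 -0.063, Dnaja4 0.058, Dnajb2 -0.013, Dnajb6 -0.030 and Dnajc7 0.020. Hsp90ab1, the constitutive relative of Hsp90aa1, was lower by log2 0.17 (edgeR adjusted p 0.0266). Hsf1 itself differed by -0.067 (0.382). These relatives, Hsp90ab1 and Hsf1 were named after their values were seen.

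Around Atf4 and Ddit3, the integrated stress response list was mixed. Of its 40 genes 18 rose and 6 fell with papain on the AhR-poor diet and 18 rose and 10 fell on the I3C diet, with medians of 0.22 and 0.25. The largest change was that of Slc7a11, the cystine carrier that ATF4 is known to drive, which went from 3.04 to 57.0 CPM on the AhR-poor diet (log2 4.23, edgeR adjusted p 6.10e-07) and from 3.91 to 34.2 CPM on the I3C diet (log2 3.13, edgeR adjusted p 3.37e-06). Aldh18a1, of proline synthesis, rose by log2 1.0 and 1.38, and Atf5 by 1.03 on the I3C diet. On the log2 scale Vldlr fell by 1.04 on the AhR-poor diet and Pck2 by 1.25 on the I3C diet. Atf4 itself did not pass on either diet. With vehicle none of the 40 differed between the diets, and with papain 4 stood higher and 7 lower in AhR-poor mice. The interaction was passed by 1 gene, where 0.329% of all genes passed, and in the average over injections 5 were higher and 9 lower. Beside these counts stand shares over all genes of 17.7% risen and 15.7% fallen with papain on the AhR-poor diet and 16.9% and 18.4% on the I3C diet, so that the fallen genes of the AhR-poor diet are near the background. Between the diets 12.3% of all genes were higher and 8.36% lower with papain, and 11.9% and 6.37% in the average.

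**Figure D5:**
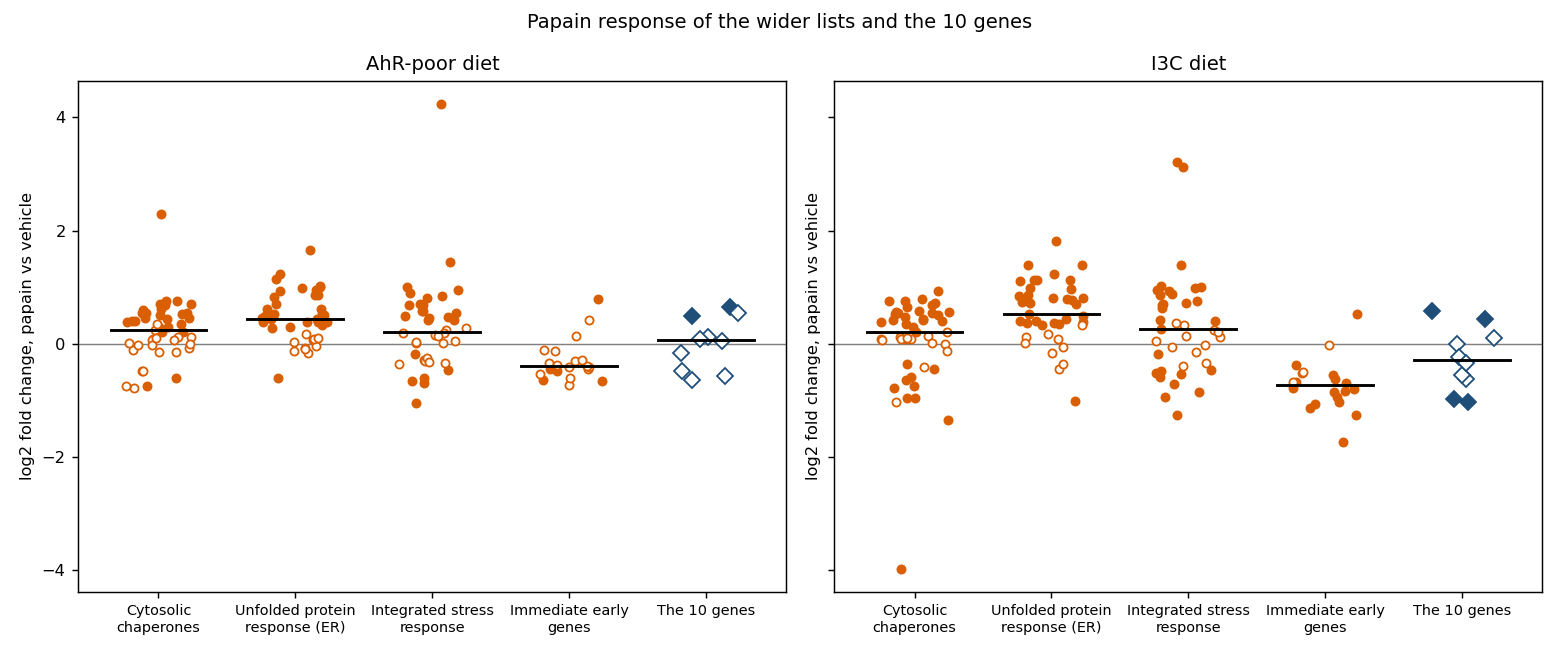
Log2 fold change of papain against vehicle (vertical axis) for every tested gene of the 4 wider lists (circles) and for the 10 genes (diamonds), on the AhR-poor diet (left) and the I3C diet (right), filled where the adjusted p is below 0.05, with the median of each list as a line. Most of the unfolded protein response list lies above 0 on both diets, with medians of 0.44 and 0.53, and the immediate early genes have medians of -0.40 and -0.74.

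Other cell types moved with the same comparisons, and their values stand beside them. In the average over injections 10 of 11 fibroblast genes, 7 of 7 endothelial, 9 of 9 monocyte and macrophage, 6 of 8 neutrophil, 5 of 6 Langerhans cell and 4 of 4 erythrocyte genes stood above their I3C level by the test. Of 7 basal keratinocyte genes 1 was higher and 4 were lower, and of 9 suprabasal genes 1 was higher and 0 were lower. Of 5 pericyte and smooth muscle genes 2 were higher and 1 was lower. Over all genes 11.9% were higher and 6.37% lower. The erythrocyte genes summed to 0.230 to 2.99 and 0.343 to 16.7 CPM on the I3C diet, and to 71.0 to 151 and 259 to 1220.1 CPM on the AhR-poor diet. Papain raised 11 of 11 fibroblast and 8 of 8 neutrophil genes on the AhR-poor diet, and 1 and 4 on the I3C diet. Over all genes 17.7% rose on the AhR-poor diet and 16.9% on the I3C diet. Hspa5 rose by 0.65 and 0.58 on the log2 scale in these comparisons. The part of these cells in the lower inducible genes of the AhR-poor diet was not tested.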

How the data were processed

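The authors deposited a single table of raw read counts per gene for the 16 libraries, not normalized. Per the labels and the study's methods, libraries were made with TruSeq Stranded mRNA and reads were aligned to mm10 with STAR. The counting tool, its annotation, its strand setting and the sequencing unit of each library are not given in the sources used here. Libraries of a group were described as biological replicates, with nothing on whether mice were pooled. Of 50600 genes, 50376 symbols matched GENCODE M21 (GRCm38), which gave positions and exon lengths.

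The 22155 genes with at least 10 counts over all libraries were fitted with edgeR 4.0.16 (R 4.3.3), with TMM factors, 1 mean for each of the 4 groups and a robust quasi-likelihood F test, adjusted over all genes (Benjamini-Hochberg). The study itself tested with DESeq2. Its design and threshold were kept here but applied to edgeR, beside an adjusted p below 0.05 at any fold, so calls here need not be the study's calls. Alternatives were DESeq2 1.42.0, other scaling and filters, a fit of only the libraries compared, the HSP70 pair summed, and each library left out. Shares over all genes were taken only from the main edgeR fit, for adjusted p and for groups without overlap. Exact permutation tests (2-sided, 40, unadjusted) used log2 CPM with a prior count of 2.

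The members and lists were chosen with earlier results of these data known. Named list genes were the at most 4 largest changes past the study's threshold with a mean of at least 1 CPM, and other named genes are marked. Tested on simulated data for the papain response on the I3C diet, edgeR recovered 95% of 100 genes changed by 1 on the log2 scale and 100% of 100 changed by 2. Recovery meant an adjusted p below 0.05 in the right direction, not the study's threshold. The changed genes were drawn only from genes above a minimum mean CPM. These shares need not hold for the genes followed here or for the other comparisons, which were not simulated. With papain on the I3C diet, Dnajb1 passed at a log2 fold change of -1.03 ± 0.22 (edgeR adjusted p 0.00148). Between the diets with vehicle, Hsph1 at -1.15 ± 0.30 (edgeR adjusted p 0.0575) and Hspa1a at -0.90 ± 0.31 (0.185) did not pass.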

Additional observations from a re-analysis of the deposited data

Results flagged for a closer look

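Hsph1 in the vehicle libraries of the AhR-poor diet was singled out because 1 library lay far from the rest: T101 held 54.1 CPM, while the next lowest held 80.6 CPM and the highest 85.2 CPM. Of 40 groups of 4 libraries examined this way, 1 had such a value, and chance gives about 1 in 20. T101 was also the lowest of its group for Hspa1a, Hspa1b, Hspb1, Dnajb1, Hsp90aa1, Hspa8, Hspa5, Ddit3 and Atf4. Without T101 the papain log2 fold change of Hsph1 on the AhR-poor diet was 0.42 (edgeR adjusted p 0.366).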

How the results depend on the processing

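The rise of Hspa5 and Hspa8 with papain passed on both diets under every alternative run. No paired analysis was possible because the codes of the libraries (T100 to T115) are not shared between groups. Scaling by library size only moved the median difference of all genes with papain to 0.11 on the log2 scale. At an adjusted p below 0.05 with no minimum fold, 2 genes rose with papain on each diet, 2 fell on the I3C diet and 2 were lower on the AhR-poor diet with papain, where the study's threshold gave 0, 0, 1 and 0. The Dnajb1 call on the I3C diet became 2 calls with library size only and 0 to 2 with each library left out. Papain on the AhR-poor diet lowered 0 genes, but 3 (Hspa1a, Hspa1b and Dnajb1) in the fit of only the libraries compared, and 0 to 1 with each library left out. The 1 was Hspa1b without T106 and Dnajb1 without T101 or T108.

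With vehicle, 0 genes were lower on the AhR-poor diet, but 2 with filterByExpr and 5 with DESeq2, of which 1 (Hsph1) also met the study's threshold, and 0 to 3 with each library left out. With papain, the count of 2 lower genes became 1 (Hspa1b) with RLE factors, 0 with library size only and 0 with a minimum of 1 count. In the fit of only the libraries compared the 1 lower gene was Hsph1 (edgeR adjusted p 0.0395). Neither gene of the HSP70 pair passed in that fit, and Atf4 was the 1 higher gene. With DESeq2 Hsph1 passed (adjusted p 0.0393) beside the pair. The count was 1 with the pair summed and 0 to 4 with each library left out, and 0 to 1 met the study's threshold. The causes were not tested.

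No value that changed sign had passed the test. Hspb1 with papain on the I3C diet became 0.000997 with RLE factors, 0.000981 with DESeq2 and 0.00723 with only the libraries compared. With library size only, Hspa5 between the diets with papain became 0.0543 and the interaction of Hspa1a 0.0451. The interaction of Hspa1b became 0.013 with RLE factors and with DESeq2, 0.0664 with library size only and 0.0048 with filterByExpr. Ddit3 averaged over injections became -2.18e-05, -0.00502 and -0.000343 with RLE factors, a minimum of 1 count and DESeq2. With each library left out, papain on the AhR-poor diet gave -0.00427 to 0.27 for Hspb1, -0.0244 to 0.15 for Hsp90aa1, -0.28 to 0.0949 for Ddit3 and -0.0644 to 0.18 for Atf4. On the I3C diet it gave -0.11 to 0.12 for Hspb1 and -0.0737 to 0.45 for Hsph1. Between the diets Hspa5 gave -0.20 to 0.0471 with vehicle and -0.14 to 0.0334 with papain. The interaction gave -0.24 to 0.22 for Hspa1a, -0.18 to 0.22 for Hspa1b, -0.0689 to 0.16 for Hspa8 and -0.10 to 0.16 for Hspa5. In the averages, papain gave -0.00457 to 0.13 for Hspb1 and -0.15 to 0.0341 for Hsp90aa1 and the diet gave -0.12 to 0.0635 for Ddit3 and -0.0439 to 0.0739 for Atf4.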

Other observations

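These gene groups within the wider lists were picked after their values were seen. All 5 tRNA synthetase genes of the integrated stress response list (Cars, Aars, Nars, Gars and Wars) rose with papain on both diets, with log2 fold changes of 0.46 to 0.69 on the AhR-poor diet and 0.63 to 0.86 on the I3C diet. The 5 listed subunits of the CCT chaperonin, the ring that folds actin and tubulin (Tcp1, Cct2, Cct3, Cct5 and Cct8), also rose on both, by 0.22 to 0.68 and 0.29 to 0.75 on the log2 scale. Psat1 and Phgdh, of serine synthesis, fell on both (log2 -0.61 and -0.46 on the AhR-poor diet, -0.94 and -0.54 on the I3C diet), and both are known ATF4 targets, as the synthetases are. Psph, the next enzyme of that path, had 0.018 and 0.052 without passing, and Shmt2, which makes glycine from serine, rose by 0.43 and 0.42 (log2). The small heat shock genes of the cytosolic list did not move as a group. Hspb6 and Hspb8 fell on both diets, by 0.60 and 0.75 on the log2 scale with the AhR-poor diet and by 0.96 and 0.79 with the I3C diet. Cryab fell on the I3C diet (-1.35) but had 0.12 on the AhR-poor diet. Of the 2 with a mean below 1 CPM, Hspb2 fell on the I3C diet (edgeR adjusted p 0.00848) and Hspb7 rose on the AhR-poor diet (0.0247). Their relative Hspb1 passed the test on neither diet.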
